A study of Mus musculus with 12 samples.

Results

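The heat shock chaperones described here are 8 mouse genes, Hspa1a, Hspa1b, Hspa8, Hsph1, Hsp90aa1, Dnajb1, Bag3 and Hspb1, named by symbol, and 7 of the 8 had a probe set annotated to that symbol alone, among 19938 genes measured. Where a gene had several such probe sets, that with the highest mean signal was used. Hspa1b shares its only probe set with Hspa1a, so its own level was not measured, and the shared probe set is given beside Hspa1a. All mice were S100a5-tauGFP mice, which carry a fluorescent reporter under the control of S100a5, and olfactory sensory neurons transcribe this calcium-binding protein gene according to their activity. 18 mice of both sexes, 7 to 12 weeks old, spent 40 hours singly in clean air chambers at 3.1 L per minute. After 26 hours they received 10-second pulses every 20 minutes of a 5% citrus accord (odor mice) or of filtered air (vehicle mice). The olfactory mucosa of 3 mice at a time was dissociated and sorted by fluorescence, which gave odor GFP-positive, vehicle GFP-positive, odor GFP-negative and vehicle GFP-negative cells, with 3 arrays in each group. GFP-positive and GFP-negative cells with the same treatment and title number come from the same pool, since 6 pools of 3 mice account for all 18 mice. Values of single arrays follow the order of the title numbers, 2, 3 and 4 for odor pools and 1, 2 and 4 for vehicle pools. Every mouse carried the reporter, and all cells, vehicle cells included, went through dissociation and sorting, so no unsorted tissue is in the comparison.

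Heat shock proteins hold unfolded proteins and help them refold. HSP70 proteins bind and release exposed stretches of their clients in a cycle driven by ATP, J-domain proteins deliver clients and start that cycle, and nucleotide exchange factors such as HSP110 and BAG proteins end it. Some members are made at all times, while others are induced by heat and other stresses that unfold proteins, through heat shock factor 1, a transcription factor that binds heat shock elements, inverted repeats of the letters GAA, near the start of their genes.

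The promoters are shown because the members differ in whether and where such letters lie near their start. Promoter windows of 250 bases before and 50 after each start, from RefSeq on GRCm38.p6, matched 6 of the 8 members, and windows of 5 of the 6 held GAANNTTC or TTCNNGAA. Each of these motifs reads the same on both strands, and they can overlap by 3 bases. Of all 32851 windows of this length, 7.86% held the first, 8.52% the second and 15.1% either. The 250 bases before the start of Hspa1a (chr17:34972157-34972406, minus strand; gene at chr17:34969359-34972156) and of Hspb1 (chr5:135887669-135887918, plus strand; gene at chr5:135887919-135889563) follow, and below them 30 bases after the start of Bag3 (chr7:128523603-128523632, plus strand) and of Hsph1 (chr5:149636287-149636316, minus strand). Capitals mark the motif matches.
Hspa1a: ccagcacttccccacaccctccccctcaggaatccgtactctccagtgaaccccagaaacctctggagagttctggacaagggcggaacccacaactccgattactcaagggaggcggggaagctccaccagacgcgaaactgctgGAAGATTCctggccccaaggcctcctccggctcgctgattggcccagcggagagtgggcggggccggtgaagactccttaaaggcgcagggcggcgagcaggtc
Hspb1: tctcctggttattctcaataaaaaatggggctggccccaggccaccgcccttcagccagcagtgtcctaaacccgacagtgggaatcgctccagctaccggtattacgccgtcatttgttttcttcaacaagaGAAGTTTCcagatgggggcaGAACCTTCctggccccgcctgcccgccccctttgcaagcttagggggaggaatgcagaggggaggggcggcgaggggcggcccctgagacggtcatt
Bag3: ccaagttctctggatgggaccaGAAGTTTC
Hsph1: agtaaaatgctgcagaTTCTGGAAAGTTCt

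Counting the first base of the transcript as 1, Hspa1a had 1 match, which begins at position -104, and Hspb1 had 2, which begin at -117 and -97. The Bag3 match begins at position 43, after the start. Hsph1 held a longer run of 3 alternating TTC and GAA units 2 bases apart, and 0.603% of all windows held 3 such units in either order. Hsph1 had 2 windows, for neighbouring starts, and both also held TTCNNGAA upstream, at -33 in one and -54 in the other. The windows of Hspa1a and Hspa1b were identical at 296 of 300 bases (98.7%), and Hspa1b had its match at the same distance from the start. These letters are not in either window of Dnajb1. Hspa8 and Hsp90aa1 had no window in the table. A match is a description of the letters and was not tested as a site.

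Arrays of the same group correlated with r between 0.986 and 0.996. Values are log2 as deposited, between 2.42 and 14.1, and the lower quartile of each array lay between 5.65 and 5.83. A difference was called where limma's adjusted p over all 19938 genes was below 0.05. S100a5, Omp and Ptprc moved with the sort, S100a5 and Omp by far less than Ptprc. S100a5 stood not far above the lower quartile of the arrays. S100a5 averaged 6.35 ± 0.05 in odor GFP-positive and 6.05 ± 0.18 in odor GFP-negative cells, and 6.35 ± 0.11 in vehicle GFP-positive against 6.16 ± 0.08 in vehicle GFP-negative cells (SD, n = 3 each). Omp, the marker of mature sensory neurons, stood at 13.5 in GFP-positive and at 13.2 in GFP-negative cells in both treatments. Ptprc, the pan-leukocyte antigen CD45, averaged 7.08 ± 0.30 in odor GFP-positive cells, against 11.3 ± 0.3 in odor GFP-negative cells.

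The first comparison asks how the chaperones differ between cells with the reporter and cells without it. In each treatment, 4 of the 7 measured members, Hspa1a, Dnajb1, Hspb1 and Bag3, were lower in GFP-positive than in GFP-negative cells, by 0.69 to 1.41 on the log2 scale, whereas Hspa8, Hsph1 and Hsp90aa1 were not called on the deposited values and some or all of them were called lower after further normalization between arrays (values below). Among all genes 18.7% were called lower in odor mice and 18.2% in vehicle mice. The members' median difference for odor mice was -0.83, and for vehicle mice -0.69, beside 0.13 and 0.06 over all genes. In bulk arrays, fewer cells of a type and less RNA per cell cannot be told apart.

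Hspa1a encodes an HSP70 that is nearly silent in many unstressed cells and strongly induced by heat. In odor mice, Hspa1a read 10.68, 11.27 and 10.84 in the 3 arrays of GFP-positive cells, against 12.09, 12.18 and 12.43 in GFP-negative cells. Vehicle mice gave 10.83, 10.03 and 10.93 in GFP-positive cells, against 11.87, 11.69 and 12.19 in GFP-negative cells. Every GFP-positive array lay below every GFP-negative array. The difference was -1.30 ± 0.22 (SE of the limma fit, adjusted p = 0.000401), or 2.47-fold lower, in odor mice and -1.32 ± 0.22 (adjusted p = 0.000382), or 2.50-fold lower, in vehicle mice.

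The probe set annotated to both Hspa1a and Hspa1b, 2 neighbouring and nearly identical genes, had the same pattern. In odor mice it read 11.07, 11.75 and 11.38 in GFP-positive cells and 12.46, 12.81 and 12.82 in GFP-negative cells. In vehicle mice it read 11.19, 10.53 and 11.45 in GFP-positive cells and 12.37, 12.12 and 12.69 in GFP-negative cells. In a limma fit over all probe sets, its difference for odor mice was -1.30 ± 0.25, and for vehicle mice -1.34 ± 0.25 (SE). How much of the Hspa1a signal comes from each copy cannot be read from these probe sets.

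Hspa8 is the constitutive HSP70, HSC70, which also uncoats clathrin-coated vesicles in neurons. In odor mice, Hspa8 read 12.93, 12.92 and 12.92 in GFP-positive cells, against 12.97, 13.00 and 13.10 in GFP-negative cells. Vehicle mice gave 12.93, 12.95 and 12.91 in GFP-positive cells, against 12.98, 12.98 and 12.97 in GFP-negative cells. On the probe set used, the GFP-positive arrays lay below the GFP-negative arrays in both treatments without overlap. The difference was -0.10 ± 0.06 (adjusted p = 0.179) in odor mice and -0.05 ± 0.06 (adjusted p = 0.528) in vehicle mice. On this probe set the spread within groups was smaller than that of all but 0.276% of genes, with group SDs of 0.01 to 0.07. Its mean over all arrays, 12.96, was above that of 99.9% of genes. The other 2 Hspa8 probe sets gave -0.09 and -0.08 in odor mice and -0.02 and 0.00 in vehicle mice. The former overlapped between the fractions in vehicle mice, and the latter in both treatments. The latter also varied more, with group SDs of 0.08 to 0.17.

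Hsph1 encodes HSP110, a nucleotide exchange factor of HSP70. In odor mice, Hsph1 read 9.26, 9.93 and 9.69 in GFP-positive cells, against 9.61, 9.81 and 10.04 in GFP-negative cells. Vehicle mice gave 9.51, 9.27 and 9.61 in GFP-positive cells, against 9.57, 9.66 and 10.09 in GFP-negative cells. The fractions overlapped in both treatments. The difference was -0.19 ± 0.18 (adjusted p = 0.377), with a 95% interval of -0.59 to 0.20, in odor mice and -0.31 ± 0.18 (adjusted p = 0.189), with an interval of -0.70 to 0.08, in vehicle mice. Within pools, Hsph1 was lower in GFP-positive cells in 5 of the 6 pools, and only odor pool 3 went the other way, by 0.12.

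Hsp90aa1 encodes the inducible cytosolic HSP90, which matures kinases and steroid receptors. In odor mice, Hsp90aa1 read 12.61, 12.78 and 12.79 in GFP-positive cells, against 12.72, 12.85 and 12.81 in GFP-negative cells. Vehicle mice gave 12.63, 12.72 and 12.79 in GFP-positive cells, against 12.77, 12.66 and 12.75 in GFP-negative cells. The fractions overlapped in both treatments. The difference was -0.06 ± 0.08 (adjusted p = 0.509) in odor mice and -0.02 ± 0.08 (adjusted p = 0.902) in vehicle mice. The other Hsp90aa1 probe sets gave -0.07 and -0.09 in odor mice and -0.03 and 0.03 in vehicle mice.

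Dnajb1 encodes the J-domain protein HSP40, which loads clients onto HSP70. In odor mice, Dnajb1 read 9.13, 9.63 and 9.42 in GFP-positive cells, against 10.54, 10.95 and 10.93 in GFP-negative cells. Vehicle mice gave 9.47, 9.27 and 9.39 in GFP-positive cells, against 10.48, 10.66 and 10.75 in GFP-negative cells. The fractions stood well apart, and the difference within pools ranged from -1.51 to -1.32 in odor pools and from -1.39 to -1.01 in vehicle pools. The fit gave -1.41 ± 0.14 (adjusted p = 4.46e-06), 2.67-fold lower, in odor mice and -1.25 ± 0.14 (adjusted p = 1.46e-05), 2.38-fold lower, in vehicle mice.

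Bag3 is an HSP70 co-chaperone that steers clients to autophagy. In odor mice, Bag3 read 7.70, 7.47 and 7.54 in GFP-positive cells, against 8.04, 8.76 and 8.71 in GFP-negative cells. Vehicle mice gave 7.62, 7.71 and 7.68 in GFP-positive cells, against 8.19, 8.44 and 8.44 in GFP-negative cells. No GFP-positive array reached a GFP-negative one. The difference for odor mice was -0.93 ± 0.16 (adjusted p = 0.000387), and for vehicle mice -0.69 ± 0.16 (adjusted p = 0.0031). Odor pool 2 had the smallest difference within a pool, -0.33, while odor pools 3 and 4 had -1.29 and -1.17.

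Hspb1 encodes the small heat shock protein HSP27 (HSP25 in the mouse), which holds unfolded proteins without using ATP. In odor mice, Hspb1 read 6.95, 6.85 and 7.03 in GFP-positive cells, against 7.36, 8.13 and 7.82 in GFP-negative cells. Vehicle mice gave 6.80, 6.92 and 6.79 in GFP-positive cells, against 7.59, 7.999 and 7.75 in GFP-negative cells. The fractions did not overlap. The difference was -0.83 ± 0.16 (adjusted p = 0.000902) in odor mice and -0.94 ± 0.16 (adjusted p = 0.000384) in vehicle mice, and the second Hspb1 probe set gave -0.93 and -1.04. Within odor pools the difference spanned -1.27 to -0.41, and odor pool 2 was again the smallest.

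**Figure D1:**
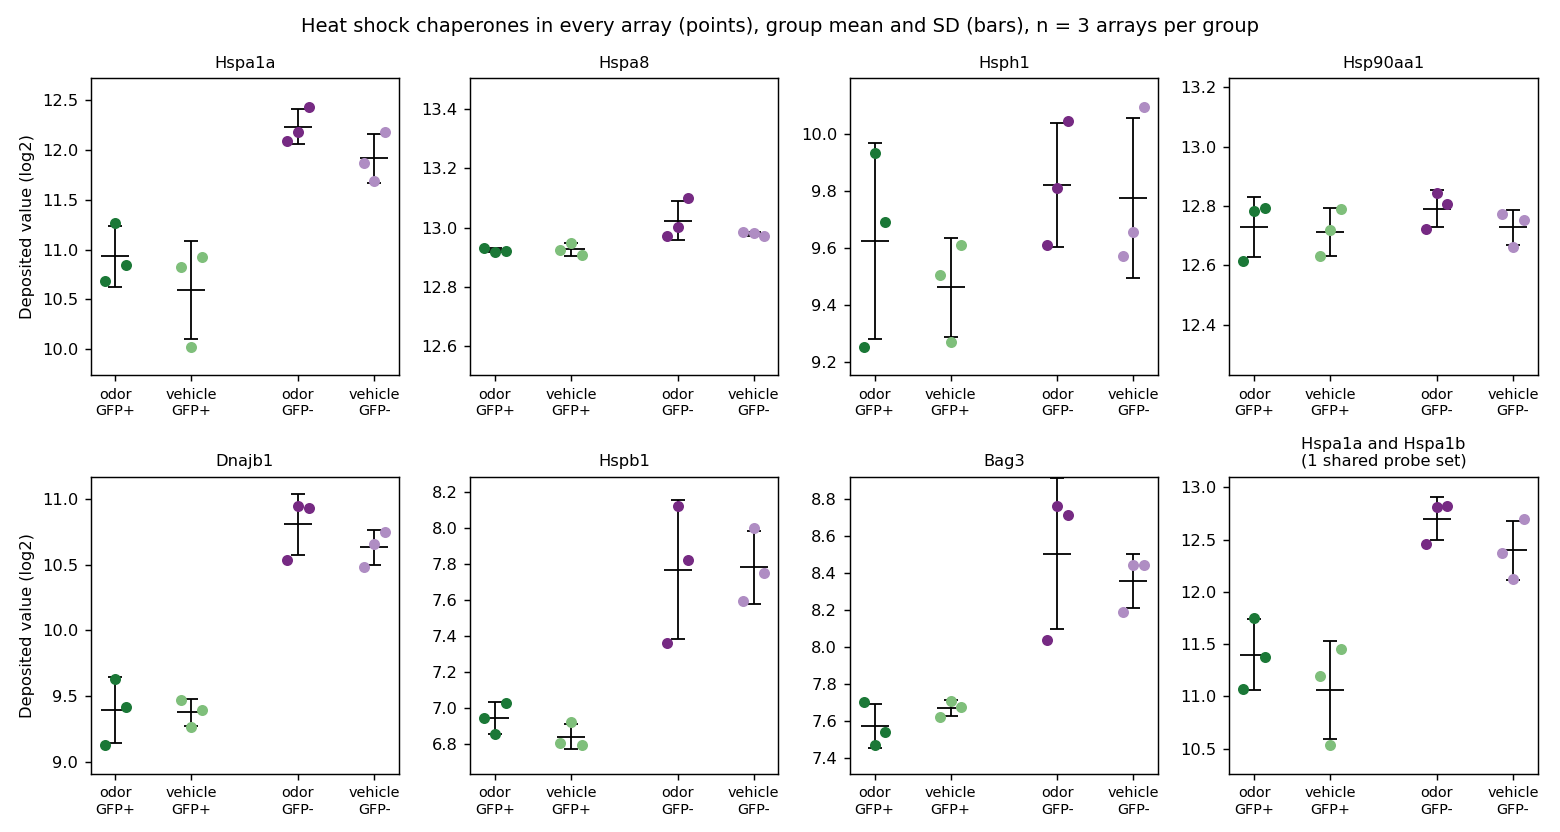
Deposited log2 value (vertical axes, a range of its own in each panel) of the 7 measured members and of the probe set shared by Hspa1a and Hspa1b in odor and vehicle GFP-positive cells (green) and odor and vehicle GFP-negative cells (purple); points are arrays, bars the group mean and SD (n = 3). Hspa1a, Dnajb1, Hspb1 and Bag3 lie lower in GFP-positive cells, without overlap, while Hsph1 and Hsp90aa1 overlap between the fractions as deposited, though cyclic loess called them lower in vehicle mice.

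Counting arrays rather than calls, 5 of 7 members had every GFP-positive array below every GFP-negative array in odor mice, and 5 of 7 in vehicle mice, where 20.4% and 22% of all genes did so. Hspa8 was among them in both treatments only on the probe set used. The scaling of the arrays touches the members near 0. Quantile normalization called Hspa8 lower as well, at -0.22 in odor mice and -0.18 in vehicle mice. Cyclic loess normalization, which fits each array to the others along the signal range, called 6 of 7 members lower in odor mice and 7 of 7 in vehicle mice, with -0.42 and -0.33 for Hspa8, -0.38 and -0.29 for Hsp90aa1, and -0.59 for Hsph1 in vehicle mice. The same normalization called 26.5% of all genes lower in odor mice and 24.8% in vehicle mice, against 18.7% and 18.2% as deposited. It moved the median of all genes to 0.00 in both treatments, against 0.13 and 0.06 as deposited, and centring each array on its median moved it to 0.27 and 0.20, where Hspa8 stood at 0.04 and 0.09 and Hsp90aa1 at 0.08 and 0.13. Relative to the median of all genes, Hspa1a, Dnajb1, Hspb1 and Bag3 lay at -1.68 to -0.73 under the deposited values and these 3 scalings. Higher genes made up 64.2% of the genes called in odor mice as deposited, 42.0% after cyclic loess and 79.3% after centring, and 62.2%, 43.8% and 76.7% in vehicle mice.

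**Figure D2:**
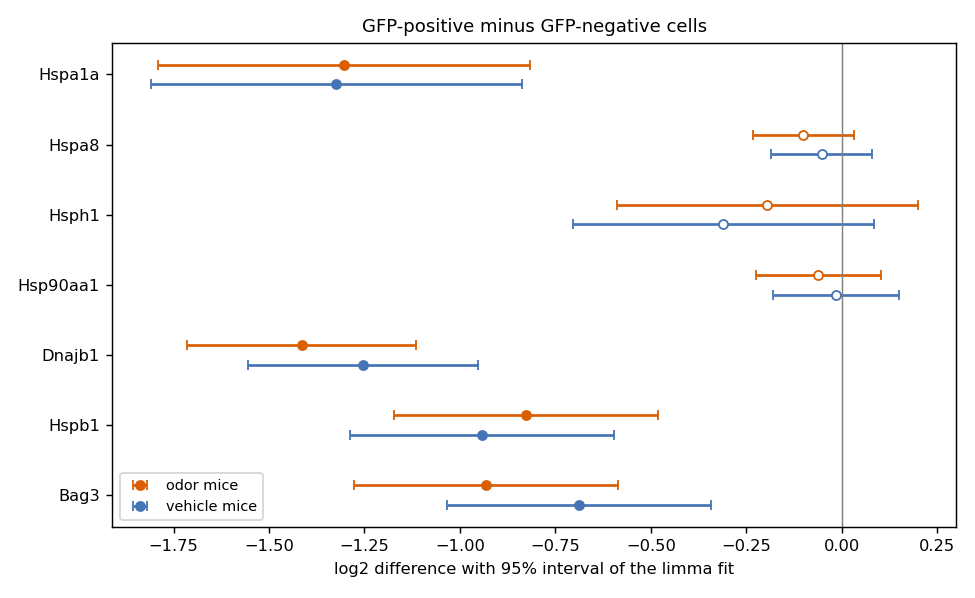
Log2 difference of GFP-positive minus GFP-negative cells (horizontal axis) for each measured member in odor mice (orange) and vehicle mice (blue), with the 95% interval of the limma fit to the deposited values; filled points were called. Hspa1a, Dnajb1, Hspb1 and Bag3 lie at -1.41 to -0.69, and the intervals of Hspa8, Hsph1 and Hsp90aa1 include 0 as deposited, whereas cyclic loess called Hspa8 and Hsp90aa1 lower in both treatments and Hsph1 in vehicle mice.

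Markers of other cell types moved with the sort in both directions, and those of immune, sustentacular, microvillous, Bowman's gland and dividing cells were lower in GFP-positive cells, as these members were. All 10 neutrophil markers were called lower in GFP-positive cells in each treatment, as were all 12 macrophage and myeloid, 8 of 8 measured lymphoid, all 7 sustentacular and all 8 microvillous cell markers. The summed neutrophil markers (log2 of the sum) ranged from 11.05 to 12.56 in odor GFP-positive and from 15.4 to 15.8 in odor GFP-negative cells, and from 11.2 to 11.7 in vehicle GFP-positive against 15.4 to 15.6 in vehicle GFP-negative cells. The summed sustentacular markers ranged from 12.1 to 12.7 in odor GFP-positive and from 14.05 to 14.35 in odor GFP-negative cells, and from 11.9 to 12.5 in vehicle GFP-positive against 14.01 to 14.34 in vehicle GFP-negative cells. Of 8 Bowman's gland markers, 7 were called lower in odor mice and 8 in vehicle mice, and of 6 measured markers of progenitors and dividing cells, 5 and 6. Markers of respiratory ciliated cells went the other way, with 7 of 7 called higher in odor mice and 6 of 7 in vehicle mice, and medians of 0.66 and 0.58. Of 13 mature neuron markers, 12 were called higher in GFP-positive cells in each treatment, though only 7 in odor mice and 8 in vehicle mice after cyclic loess. Among all genes 33.5% were called higher in odor mice and 29.9% in vehicle mice, and 18.7% and 18.2% were called lower. Immature neuron markers were mixed, with 5 of 10 higher and 3 lower in each treatment. The other lists were called lower in part and higher in none as deposited. These were 3 of 6 horizontal basal cell markers, 2 of 5 measured ensheathing glia markers, 1 of 7 stromal and 2 of 3 measured erythroid markers in each treatment, and 3 of 7 endothelial markers in odor mice against 4 in vehicle mice. The stromal count was not above the share of all genes called lower. The part of these other cells in the chaperone differences was not tested.

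Immediate early genes, which cells switch on within minutes of a stimulus, moved the same way with the sort and further. Of 28, 24 were called lower in GFP-positive cells in each treatment, with a median of -2.03 in odor mice and -2.08 in vehicle mice, and 1, Npas4, was called higher. Egr2, a zinc finger transcription factor, averaged 7.44 ± 0.32 in odor GFP-positive and 11.3 ± 0.5 in odor GFP-negative cells (SD, n = 3 each), a difference of -3.88 ± 0.21 (SE, limma adjusted p = 2.81e-08). Fos averaged 8.87 ± 0.85 in odor GFP-positive and 11.7 ± 0.4 in odor GFP-negative cells. Their part in the chaperone differences was not tested.

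The second comparison asks whether the odor changed the chaperones. No measured member was called between odor and vehicle mice in either fraction (0 of 7 in each), nor did any have odor and vehicle arrays without overlap. Among all genes 0.00502% (1 gene) were called in GFP-positive cells and 0% in GFP-negative cells, while 1.3% and 6.53% had an unadjusted limma p under 0.05, and 7.93% and 7.44% had groups without overlap. No member had an unadjusted p under 0.05 in either fraction.

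Hspa1a had the largest difference of the members in each fraction, 0.34 ± 0.22 in GFP-positive cells (95% interval -0.15 to 0.82, limma adjusted p = 1) and 0.32 ± 0.22 in GFP-negative cells (-0.17 to 0.80, adjusted p = 0.773). The GFP-positive value rested on vehicle array 2, which read 10.03 while the other vehicle arrays read 10.83 and 10.93, and without it the difference was 0.06. Dnajb1, its J-domain partner, differed by 0.01 in GFP-positive cells (-0.29 to 0.31) and by 0.17 in GFP-negative cells (-0.13 to 0.47). Hsph1 differed by 0.16 (-0.23 to 0.56) and 0.05 (-0.35 to 0.44), and Bag3 by -0.10 (-0.44 to 0.25) and 0.15 (-0.20 to 0.49) in GFP-positive and GFP-negative cells.

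The limits were narrower for Hspa8 and Hsp90aa1 on the probe sets used. There the mean signal of Hspa8 was above that of 99.9% of genes and that of Hsp90aa1 above 99.8%. The part of this high level in the narrow limits was not tested. In GFP-positive cells Hspa8 differed by -0.00, with an interval of -0.14 to 0.13, and Hsp90aa1 by 0.02, with an interval of -0.15 to 0.18. GFP-negative cells gave 0.04 (-0.09 to 0.18) for Hspa8 and 0.06 (-0.10 to 0.23) for Hsp90aa1. In a limma fit over all probe sets, the other Hspa8 probe sets gave -0.02 ± 0.06 and -0.07 ± 0.10 (SE) in GFP-positive cells. They gave 0.05 ± 0.06 and 0.01 ± 0.10 in GFP-negative cells. The other Hsp90aa1 probe sets gave 0.01 and -0.01 in GFP-positive cells and 0.05 and 0.11 in GFP-negative cells. Hspb1 differed by 0.10 (-0.24 to 0.45) in GFP-positive and by -0.01 (-0.36 to 0.33) in GFP-negative cells. The probe set shared by Hspa1a and Hspa1b differed by 0.34 ± 0.25 and 0.30 ± 0.25 (SE). A missed threshold does not show that odor and vehicle levels are equal, and these intervals are the changes the arrays leave possible.

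**Figure D3:**
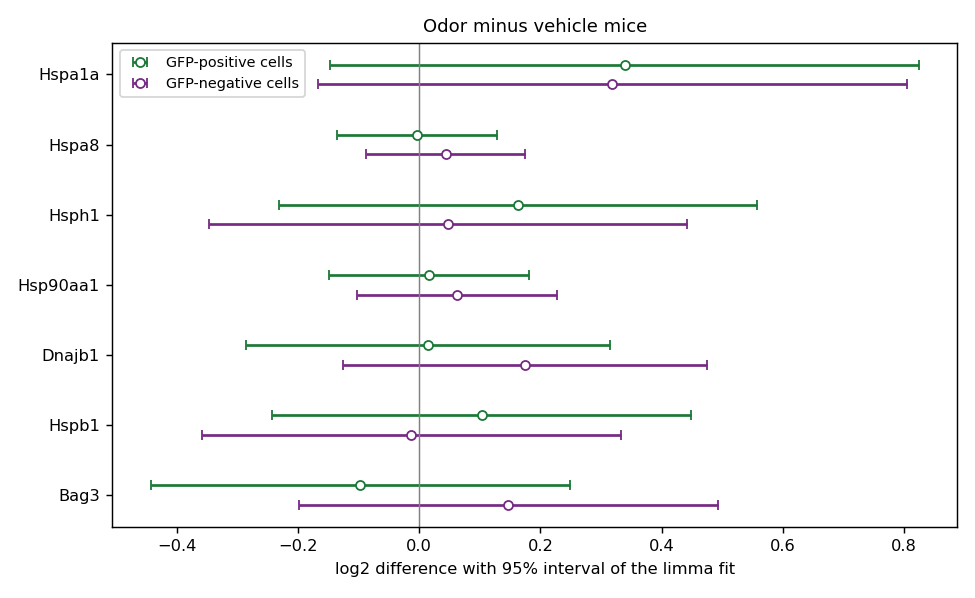
Log2 difference of odor minus vehicle mice (horizontal axis) for each measured member in GFP-positive cells (green) and GFP-negative cells (purple), with the 95% interval of the limma fit. All 14 intervals include 0; that of Hspa1a in GFP-positive cells reaches 0.82 and that of Hspa8 stays within -0.14 to 0.13.

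The third comparison asks whether the odor altered the difference between the fractions. Taken as the fraction difference in odor mice minus that in vehicle mice, the interaction was called for 0 of 7 members, beside 0.00502% of all genes. It ranged from -0.24 ± 0.22 for Bag3 (limma adjusted p = 0.977) to 0.12 ± 0.23 for Hspb1 and 0.12 ± 0.26 for Hsph1 (SE), with 0.02 ± 0.32 for Hspa1a and -0.16 ± 0.20 for Dnajb1.

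The members differed in how much they varied between arrays of 1 group. The pooled SD within groups was 0.327 for Hspa1a, more than for 96.2% of genes, 0.261 for Hsph1 (93.1%), 0.226 for Hspb1 (90.3%), 0.225 for Bag3 (90.3%) and 0.191 for Dnajb1 (85.0%). Hsp90aa1, at 0.0775, exceeded 13.7% of genes and Hspa8, at 0.0355, only 0.276%, each on the probe set used. Both have a mean signal near the top of all genes, as given above, and the part of that level in their small spread was not tested. Another Hspa8 probe set varied more, as given above. With group means removed, each member correlated positively over the 12 arrays with the mean of all 7, from r = 0.33 for Hspa8 to 0.86 for Hsph1 and 0.93 for Dnajb1. These are descriptions, since each member is part of that mean and fractions share their pool.

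By the mean over the 7 members, odor pool 2 was the lowest odor pool in both fractions. Not every member followed, and its GFP-positive cells had the highest Bag3 and Hspa8 of the odor GFP-positive arrays. GFP-positive cells of vehicle pool 2 had a lower mean still, 9.84. For odor pool 2 this mean was 9.89 in its GFP-positive cells, against 10.12 and 10.03 in the other odor pools, and 10.48 in its GFP-negative cells, against 10.81 and 10.84. Its immediate early genes were also the lowest, with a mean of 7.95 in GFP-positive cells, against 8.23 and 8.22, and of 9.42 in GFP-negative cells, against 10.17 and 10.24, and so were its neutrophil markers, at 7.44, against 7.98 and 8.42, and at 11.57, against 11.94 and 12.01. Without this pool, in both fractions, 4 members were called lower in GFP-positive cells in each treatment and 0 of 7 between odor and vehicle mice. With every pool kept, 18.7% of all genes were called lower in GFP-positive cells of odor mice and 18.2% in vehicle mice. The part of these markers in the low chaperone values was not tested.

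Genes outside the list with the most similar pattern were named by their correlation with the members' mean. Over the 12 arrays these were Stx11 (r = 0.990), Prkch (0.988), Zfp710 (0.988), 5430427O19Rik (0.987) and Plxdc1 (0.987). Once group means were removed they were Apaf1 (r = 0.972), Cxcr4 (0.971), Lbp (0.961), Pik3c2b (0.958) and Casr (0.947). The second set reflects the spread between arrays alone, and the arrays share pools.

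Other chaperones did not share one direction between the fractions. Of 83 measured genes on 9 further lists, 26 were called higher and 7 lower in GFP-positive cells of odor mice, and 28 higher and 5 lower in vehicle mice, but 8 higher and 27 lower, and 8 higher and 26 lower, after cyclic loess, so the balance of these lists turns with the scaling. As deposited, the share called higher, 31.3% in odor mice and 33.7% in vehicle mice, was near the 33.5% and 29.9% of all genes. The share called lower, 8.43% and 6.02%, was below the 18.7% and 18.2% of all genes. Cyclic loess lowered the share called higher to 9.64% of these genes in each treatment, and to 19.2% and 19.3% of all genes. It called 32.5% and 31.3% of these genes lower, against 26.5% and 24.8% of all genes. As deposited, their medians were 0.14 in odor mice and 0.13 in vehicle mice, close to 0.13 and 0.06 over all genes. Between odor and vehicle mice, 0 of 83 were called in either fraction. Named genes below kept their call under quantile normalization, cyclic loess and centring in both treatments unless stated.

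Among regulators, Hsf2, a heat shock factor with roles in development and in the stress response, was higher in GFP-positive cells, by 0.73 ± 0.12 in odor mice and 0.65 ± 0.12 in vehicle mice (SE, limma adjusted p = 0.000353 and 0.00084). It averaged 9.32 ± 0.02 in odor GFP-positive and 8.59 ± 0.29 in odor GFP-negative cells (SD, n = 3 each). Hsf1 had no probe set of its own symbol alone and has no value here.

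In the HSP70 and HSP110 families, Hspa12a, a distant HSP70 relative, was higher by 0.70 and 0.88, and Hspa4l, an HSP110 protein, by 0.53 and 0.56 in odor and vehicle mice. Of the J-domain proteins, 9 of 19 were called higher and 0 lower in odor mice, and 10 and 0 in vehicle mice. Of all genes, 33.5% and 29.9% were called higher and 18.7% and 18.2% lower. Cyclic loess left 3 J-domain proteins higher and 5 lower in odor mice and 3 and 4 in vehicle mice. These were 15.8% higher in each treatment and 26.3% and 21.1% lower. The shares of all genes were near, at 19.2% and 19.3% higher and 26.5% and 24.8% lower. Dnajb14, an endoplasmic reticulum J-domain protein, led that list as deposited, at 0.70 and 0.74.

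Among HSP90 co-chaperones, Fkbp5, a regulator of steroid receptors that glucocorticoids induce, was lower in GFP-positive cells, with differences of -1.24 ± 0.22 (2.37-fold lower) in odor mice and -0.99 ± 0.22 (1.98-fold lower) in vehicle mice (SE). It averaged 7.67 ± 0.08 in odor GFP-positive and 8.91 ± 0.62 in odor GFP-negative cells. Unc45a, a myosin chaperone that works with HSP90, was instead higher, by 0.60 in odor mice and by 0.49 in vehicle mice, the vehicle value not called after cyclic loess.

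The small heat shock proteins Hspb8, a BAG3 partner, and Cryab, alpha B-crystallin, stood with Hspb1. Hspb8 differed by -0.79 ± 0.10 in odor mice and -0.84 ± 0.10 in vehicle mice, and Cryab by -0.49 ± 0.10 and -0.69 ± 0.10 (SE, all called by limma). The remaining 6 of 8 on that list were not called as deposited. In odor mice quantile normalization called 3 and centring 5 of the 8 higher, near the 38.1% and 58.7% of all genes. Cyclic loess called 3 of the 8 lower in each treatment, beside 26.5% of all genes in odor mice and 24.8% in vehicle mice. Of the mitochondrial chaperones, Hspe1, the HSP10 partner of HSP60, differed by -0.66 and -0.48. Pdia6, a protein disulfide isomerase of the endoplasmic reticulum, differed by -0.31 and -0.29, the vehicle value not called after centring.

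**Figure D4:**
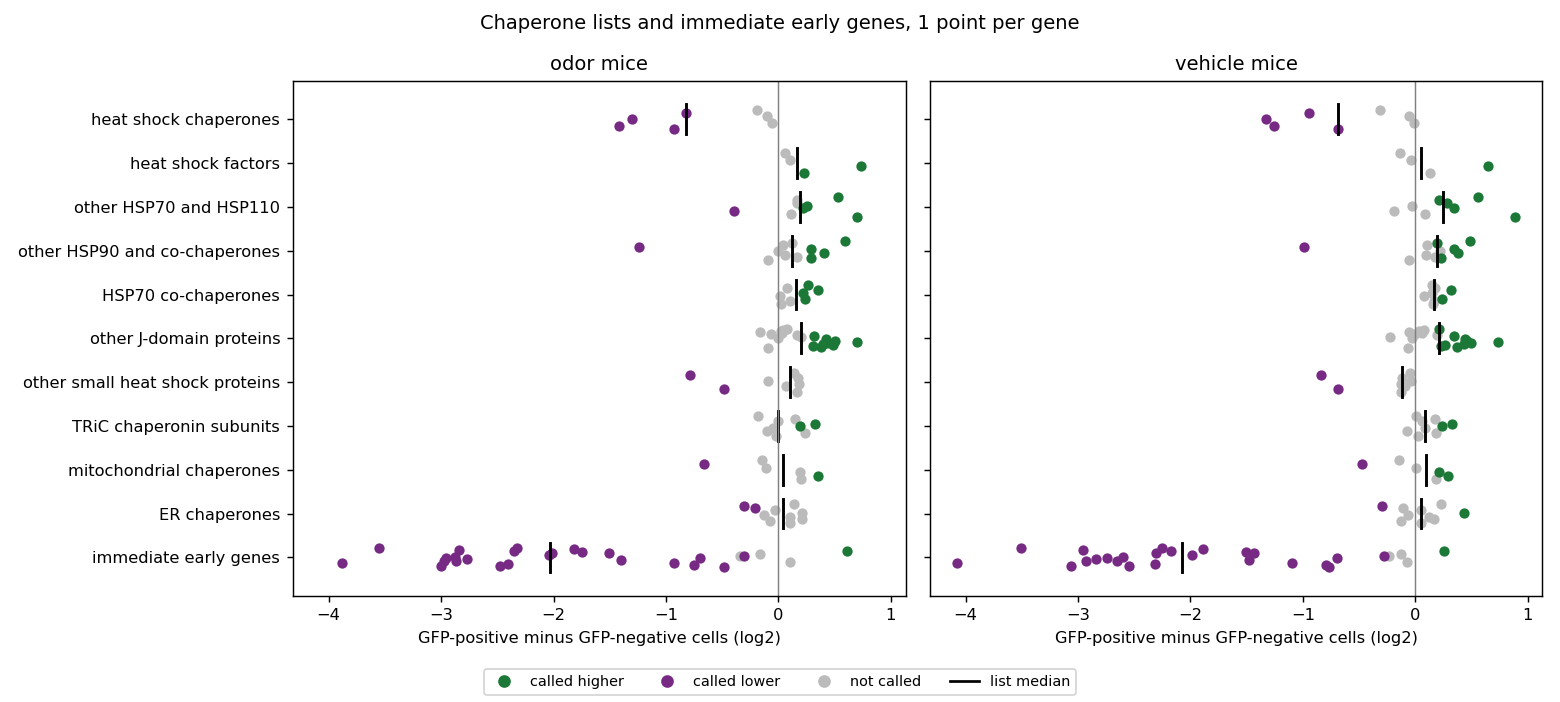
Log2 difference of GFP-positive minus GFP-negative cells (horizontal axis) of each measured gene on the chaperone lists and of the immediate early genes, in odor mice (left) and vehicle mice (right), as deposited; colours give the limma call and black ticks the list median. The heat shock chaperones have medians of -0.83 and -0.69, the immediate early genes -2.03 and -2.08, and the balance of the 9 other lists turns after cyclic loess.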

How the data were processed

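The 4 groups were hybridised to 12 Mouse Gene 1.0 ST arrays, 3 per group. Per the submitters' processing notes, Affymetrix Expression Console gave the deposited values per probe set. The sources used here do not give its version, summarization, background correction or scaling. That the deposited values are log2 follows from their range, and they entered the tests unchanged. Arrays give no counts, so the number of arrays limits the precision.

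Of 35556 probe sets, 21789 carried 1 symbol in the platform annotation, 1621 several and 12146 none. Those with 1 symbol were kept, 21698 of their gene identifiers matched RefSeq and 91 did not, and 999 genes with several probe sets kept the one with the highest mean. No low values were filtered. The 4 group means were fitted with limma 3.58.1 under R 4.3.3 over 19938 genes, with two-sided moderated tests and Benjamini-Hochberg adjustment at 0.05, and the script was tested on simulated data. Replicates are separate pools of 3 mice. The fractions of a pool share their mice, and their deviations from the group means correlated with r between 0.07 and 0.25. GFP-positive and GFP-negative arrays from different pools of the same treatment gave -0.18 to 0.06. Odor and vehicle arrays of the same fraction gave -0.17 to 0.28 where they shared a title number. Those sharing the number in the bracketed code of the title gave -0.21 to 0.44. The labels do not state that either number pairs an odor pool with a vehicle pool. Alternatives changed the scaling, the filter, the probe set, the weights and the blocks, and left out each array. A fit over all probe sets and one without odor pool 2 were added after the data were seen. Figures were made with matplotlib 3.10.9 under Python 3.11.15, from tables handled with pandas 2.3.3 and numpy 2.4.6.

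The members and lists were chosen with earlier results of these data known. Named were all members, up to 4 called genes with the largest difference on each chaperone list and among immediate early genes, the 5 genes most similar in pattern by each of 2 measures, and S100a5, Omp, Gap43, Fos and Ptprc, of which the text gives part. Npas4 in vehicle and odor mice is named outside that rule, after its values were seen. Gap43 is among the checks computed only.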

Additional observations from a re-analysis of the deposited data

How the results depend on the processing

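Of 992 values recomputed under 13 alternatives and with each of 12 arrays left out, 983 kept their side of the threshold, 9 passed it where the value as reported had not, 0 lost it and 0 turned a called direction. The number of members called lower in GFP-positive cells of vehicle mice was 7 after cyclic loess, against 4 as reported, and in odor mice it was 6. Among all genes, cyclic loess called 24.8% lower in vehicle mice and 26.5% in odor mice. The other calls gained were Hspa8 after quantile normalization and Hsph1 in vehicle mice with title numbers as replicate block (difference -0.31, limma adjusted p = 0.0434). The labels do not state that title numbers pair odor with vehicle pools. With the pool as a replicate block, 4 members were called in odor mice and 4 in vehicle mice, 0 between odor and vehicle mice in either fraction and 0 for the interaction, so this pairing changed no other call. That block called 51.4% of all genes between fractions in odor mice and 47.7% in vehicle mice, in either direction. Leaving out each array in turn kept the counts of members at 4 to 4 between fractions and 0 to 0 between treatments. Of all genes, 43.4% to 53.9% were then called between fractions in odor mice and 41.9% to 49% in vehicle mice. The difference of Hspa1a between odor and vehicle GFP-positive cells ranged from 0.06 to 0.50 with an array left out. With 3 arrays per group, the 95% interval of Hspa1a leaves any change from -0.15 to 0.82 possible in GFP-positive cells, and the scaling before deposit is unknown.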
